A study of Homo sapiens with 6 samples.

Results

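Cytokine genes of the IL6, IL1, LIF and colony-stimulating factor groups were examined in HK-2, an established cell line derived from the human renal proximal tubule and transformed with human papillomavirus 16. The genes were chosen by symbol and are IL6, IL11, LIF, IL1A, IL1B, IL18, IL32, CSF1, CSF2 and CSF3. All 10 were present among the 26899 genes of the counts table. Polyadenylated RNA had been sequenced from 3 libraries whose titles say wild type and 3 libraries whose titles say ANXA2 knockdown, all of HK-2 cells grown with serum. The descriptions abbreviate the first group as shCtrl, so the labels leave unclear whether the control cells carried a hairpin. Plasmids were introduced with Lipofectamine 2000, and the labels give neither the time after transfection nor the hairpin sequence. Nothing in the labels says that the 3 libraries of a group came from separate cultures, so the p-values measure the spread between these libraries, which may be technical.

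These cytokines are short secreted proteins that let epithelial, stromal and immune cells signal to each other. IL6, IL11 and LIF bind their own receptors and then share the signalling chain IL6ST (gp130), which activates JAK kinases and STAT3. IL1A and IL1B act through the IL1 receptor and MYD88 to activate NF-kB, and IL18 uses a related receptor. CSF1, CSF2 and CSF3 encode M-CSF, GM-CSF and G-CSF, growth factors of macrophages and granulocytes. Many of these genes are switched on by NF-kB and AP-1, and many of their mRNAs carry AU-rich elements that shorten their life. In the kidney, injured tubule cells are known to release several of them.

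Libraries held between 24231267 and 34561675 counted reads. No lower level of ANXA2, the labelled target, was detectable under the knockdown label (1539 ± 21.3 CPM against 1598 ± 119 CPM, SD, n = 3, edgeR log2 fold change -0.05, adjusted p 0.848). CPM are read counts scaled to a common library size. Every direction below is therefore a difference between labels. Control replicate 1 stood apart on the first principal component, with a score of -61.8 against -13.7 to 26.4 for the other 5 libraries. The epithelial markers KRT8 (491 FPKM, mean of 6 libraries), KRT18 (261 FPKM), KRT19 (95.5 FPKM) and EPCAM (28.9 FPKM) were abundant. The kidney lineage factor PAX8 (115 FPKM) was abundant too. By contrast, the epithelial marker CDH1 was near the detection limit, with 2 to 16 reads per library (0.043 FPKM). The proximal tubule genes on the marker list were divided. GGT1, a brush border enzyme (69 FPKM), and the cadherin CDH2 (31.2 FPKM) were abundant, while LRP2, AQP1, CUBN, ANPEP and SLC34A1 had between 0 and 22 reads in every library. The leukocyte markers PTPRC, CD3E, CD163 and TYROBP were not listed. The summed level of CD14, LYZ, ITGAM and FCER1G was 1.32 to 3.2 CPM in the libraries labelled control and 2.42 to 4.54 CPM in those labelled knockdown, carried mostly by CD14.

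In order to rank the cytokines by abundance, the deposited FPKM values were used, since they are divided by transcript length. IL6 was the most abundant at a mean of 380.3 FPKM over the 6 libraries, which placed it at rank 147 of the 26803 genes in that table. IL32 (197.2 FPKM) and CSF2 (184 FPKM) followed, at ranks 291 and 317. LIF (38.7 FPKM), CSF1 (30.7 FPKM), IL18 (13.6 FPKM) and IL11 (6.52 FPKM) came next. CSF3 was low at 0.645 FPKM, and IL1A and IL1B were at 0.03 and 0.0267 FPKM. Some neighbours in this order could not be separated. IL6 lay above IL32 in 4 of 6 libraries and IL32 above CSF2 in 3 of 6, whereas LIF lay above CSF1, IL18 above IL11 and IL11 above CSF3 in 6 of 6.

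IL6, the ligand that gives the family its name, lies on chromosome 7 from 22725884 to 22732002 (plus strand, ENSG00000136244.11, GRCh38). Its level was 133.8, 688.9 and 862.7 CPM in control replicates 1, 2 and 3, and 953.1, 1176 and 334.4 CPM in knockdown replicates 1, 2 and 3. Control replicate 1 and knockdown replicate 3 were the lowest, and the groups overlapped. The means were 561.8 ± 381 CPM in the libraries labelled control and 821.2 ± 436 CPM in those labelled knockdown (SD, n = 3). By edgeR the log2 fold change was 0.55 (SE 0.604, 95% interval -0.81 to 1.91, adjusted p 0.806). Leaving out control replicate 1 gave 0.085, and the estimate was 0.2 without knockdown replicate 2, 0.92 without knockdown replicate 3 and 1 without control replicate 3. Exons of IL6 overlap those of IL6-AS1 and STEAP1B on the other strand. Those genes had 47 to 81 and 186 to 270 reads per library, against 3264 to 38838 for IL6, and whether the counting used strand is not stated in any source at hand.

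CSF2, the granulocyte-macrophage factor, lies on chromosome 5 from 132073789 to 132076170 (plus strand, ENSG00000164400.5). Its level was 20.4, 178.5 and 229.7 CPM in control replicates 1 to 3 and 187.8, 245.5 and 59.2 CPM in knockdown replicates 1 to 3. The same 2 libraries were lowest as for IL6, and the highest of the 6 was 12 times the lowest. Its log2 fold change was 0.20 (edgeR, SE 0.721, 95% interval -1.43 to 1.82, adjusted p 0.951). The sign turned without control replicate 1 (-0.31) and without knockdown replicate 2 (-0.21), and the estimate was 0.72 without control replicate 3.

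**Figure D1:**
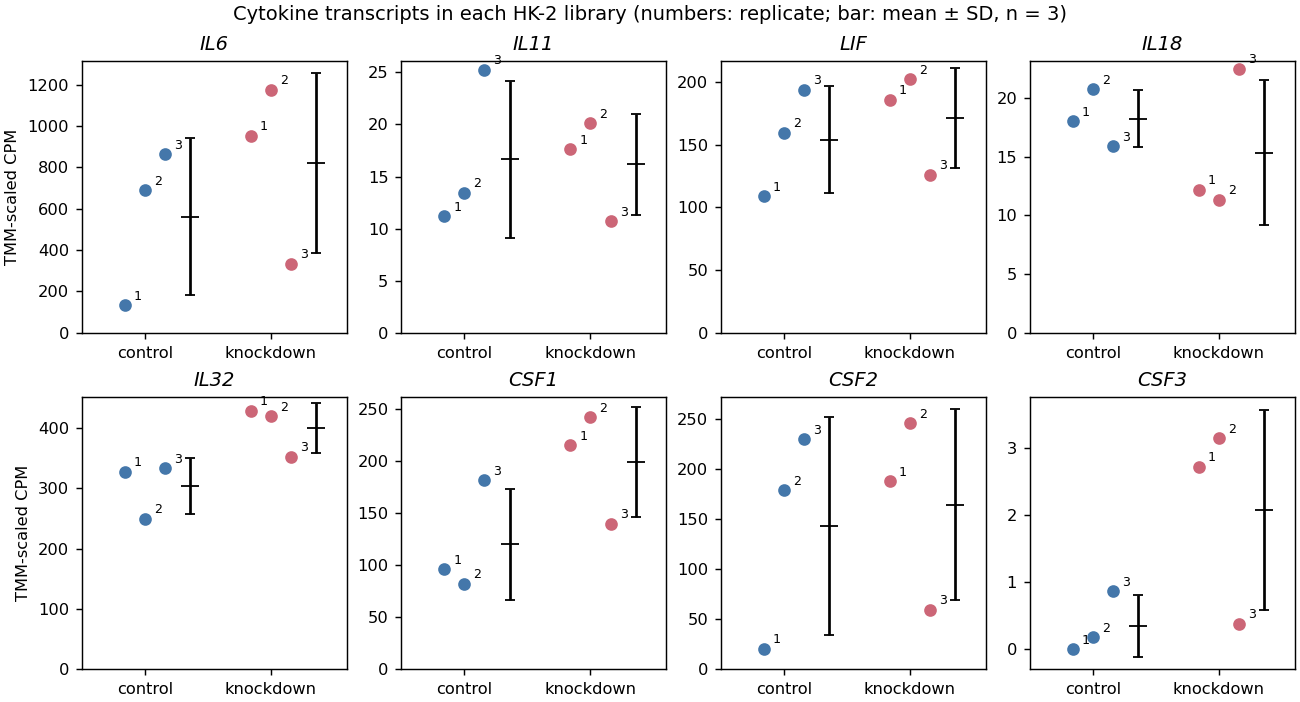
TMM-scaled CPM of the 8 cytokine genes that passed the low-count filter, with a linear axis for each gene, points for single libraries numbered by replicate, and the mean ± SD of each group (n = 3). The control and knockdown points overlap for every gene except IL32, and control replicate 1 and knockdown replicate 3 are the lowest points for IL6, CSF2, LIF and IL11.

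LIF, which keeps mouse embryonic stem cells undifferentiated and signals through LIFR and IL6ST, lies on chromosome 22 from 30240453 to 30246759 (minus strand, ENSG00000128342.4). It had 109 CPM, 159.3 CPM and 193.6 CPM in control replicates 1 to 3 and 185.8, 202.2 and 126.1 CPM in knockdown replicates 1 to 3. The groups overlapped, with a log2 fold change of 0.15 (edgeR, SE 0.222, 95% interval -0.35 to 0.66, adjusted p 0.855). Leaving out control replicate 1 gave -0.04 and leaving out control replicate 3 gave 0.35. Exons of LIF overlap those of LIF-AS1 on the other strand, which had 11 to 26 reads per library against 2659 to 6676 for LIF.

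IL11, a ligand of the same group known for its part in fibrosis, lies on chromosome 19 from 55364382 to 55370463 (minus strand, ENSG00000095752.6). It had 11.2, 13.5 and 25.3 CPM in control replicates 1 to 3 and 17.6, 20.1 and 10.7 CPM in knockdown replicates 1 to 3. The lowest library of all was labelled knockdown and the highest was labelled control. The log2 fold change was -0.04 with a 95% interval of -0.76 to 0.68 (edgeR, adjusted p 0.976). Leaving out control replicate 1 gave -0.26, and the sign turned without control replicate 3 (0.39) and without knockdown replicate 3 (0.18).

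CSF1, the growth factor of macrophages, lies on chromosome 1 from 109910242 to 109930992 (plus strand, ENSG00000184371.13). It had 96.1, 82 and 181.4 CPM in control replicates 1 to 3 and 215.6, 242.2 and 140 CPM in knockdown replicates 1 to 3. Knockdown replicates 1 and 2 lay above every control library, while knockdown replicate 3 lay below control replicate 3. Means were 119.8 ± 53.8 CPM and 199.2 ± 53 CPM (SD, n = 3). The log2 fold change was 0.73 (edgeR, SE 0.295, 95% interval 0.07 to 1.40), with p values of 0.034 unadjusted and 0.605 adjusted. Omission of control replicate 2 gave 0.52, and omission of control replicate 3 gave 1.16.

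IL32, a cytokine that rodents lack and that is induced by NF-kB and interferon signals, lies on chromosome 16 from 3065297 to 3082192 (plus strand, ENSG00000008517.16). Its level was 328.2, 249.9 and 333.6 CPM in control replicates 1 to 3 and 429.2, 419.7 and 353 CPM in knockdown replicates 1 to 3. All 3 libraries labelled knockdown lay above all 3 labelled control, and IL32 was the only 1 of the 8 tested genes whose groups did not overlap. Over all 15299 tested genes, 15.6% had groups that did not overlap, and 7.94% did so with the knockdown label higher, so 1 of 8 is close to that background. The log2 fold change was 0.40 (edgeR, SE 0.129, 95% interval 0.11 to 0.69), with p values of 0.0126 unadjusted and 0.599 adjusted. The exact two-sided permutation p was 0.1, the smallest that 3 against 3 can give. Omission of control replicate 2 gave 0.28, and omission of knockdown replicate 3 gave 0.48.

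IL18, an IL1 family member that is made as an inactive precursor and cut by caspase-1, lies on chromosome 11 from 112143253 to 112164096 (minus strand, ENSG00000150782.11). It had 18, 20.8 and 15.9 CPM in control replicates 1 to 3 and 12.2, 11.4 and 22.5 CPM in knockdown replicates 1 to 3. Knockdown replicates 1 and 2 were the lowest of the 6 libraries and knockdown replicate 3 the highest. By contrast, knockdown replicates 1 and 2 were the highest of the 6 for IL6, IL32, CSF1 and CSF3. The log2 fold change was -0.25 (edgeR, SE 0.254, 95% interval -0.82 to 0.32, adjusted p 0.789). Omission of knockdown replicate 3 gave -0.63, and omission of knockdown replicate 2 gave -0.07.

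CSF3, the growth factor of neutrophils, lies on chromosome 17 from 40015361 to 40017813 (plus strand, ENSG00000108342.12) and had few reads. Control replicates 1, 2 and 3 held 0, 6 and 27 reads, and knockdown replicates 1, 2 and 3 held 93, 104 and 11 reads. The count of 0 allows a level of up to 0.123 CPM, taken as 3 reads. Knockdown replicates 1 and 2 were the highest, while knockdown replicate 3 lay below control replicate 3. Means were 0.35 ± 0.457 CPM and 2.09 ± 1.49 CPM (SD, n = 3). Summed over the groups, 208 reads stood against 33, a ratio of 5.79 after correction for depth (exact counting interval 4 to 8.64). That interval covers counting error only and leaves out the spread between libraries. The log2 fold change was 2.52 (edgeR, SE 1.01, 95% interval 0.24 to 4.80), with p values of 0.0335 unadjusted and 0.605 adjusted. Omission of control replicate 1 gave 2, and omission of control replicate 3 gave 4.32. The estimate was 3.24 with limma-voom, 2.06 on log2(FPKM + 0.1) and 0.76 on log2(FPKM + 1), a scale that understates the change of a gene this low.

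IL1A and IL1B, the ligands of the IL1 receptor, were close to the detection limit. IL1A (chromosome 2 from 112773925 to 112784493, minus strand, ENSG00000115008.5) had 0, 4 and 1 reads in control replicates 1 to 3 and 0, 8 and 0 reads in knockdown replicates 1 to 3. All 8 reads labelled knockdown came from 1 library. IL1B (chromosome 2 from 112829751 to 112836816, minus strand, ENSG00000125538.11) had 0, 0 and 1 reads in control replicates 1 to 3 and 4, 4 and 0 reads in knockdown replicates 1 to 3. For IL1B, 8 reads stood against 1, a ratio of 7.35 after correction for depth (exact 95% interval 0.986 to 326). The corresponding ratio of IL1A was 1.47 (0.424 to 5.71). These intervals cover counting error only. Neither gene passed the low-count filter, and a difference was not detectable at this depth. A library with 0 reads allows a level of up to 0.0879 to 0.123 CPM, depending on its depth.

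The comparison of the labels thus gave 0 of 8 tested cytokine genes past an adjusted p of 0.05 by the quasi-likelihood test of edgeR, against 0% of all 15299 tested genes. At an unadjusted p under 0.05, 3 of the 8 (IL32, CSF1 and CSF3) were higher in the libraries labelled knockdown and 0 lower, where 8.18% of all tested genes passed in either direction and 3.86% were higher. Estimates were above 0 for 6 of 8, against 49% of tested genes, and at least 0.5 for 3 of 8 (IL6, CSF1 and CSF3), against 6.09%. CSF3 passed the low-count filter through the libraries labelled knockdown, since among the controls only replicate 3 reached the minimum count of 10. Its place in these counts therefore follows partly from the filter and adds no separate support. The median log2 fold change was 0.30 for the 8 genes and -0.0065 for all tested genes. Without control replicate 1, 4 of 8 estimates were above 0 and their median was 0.02. The median was 0.11 without knockdown replicate 2, 0.54 without knockdown replicate 3 and 0.60 without control replicate 3. DESeq2 gave an adjusted p for 8 of the 10 genes and 0 of these were below 0.05, against 0.207% of all genes with one. At an unadjusted p under 0.05 it gave 1 of 10, against 4.78% of all genes. With limma-voom 0 of 8 passed the adjusted and 2 of 8 the unadjusted threshold, the latter against 8.64% of tested genes.

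The result depended on the filter and on single libraries. Fitted without the low-count filter, edgeR called IL6, IL32, CSF1 and CSF3 (adjusted p 7.52e-05, 0.0449, 7.43e-07 and 0.000543), while 0.613% of the 26899 genes were called. Under another of the alternatives run, each of the 4 had an adjusted p of 0.988. That fit without the filter gave all genes 1 shared spread around the trend, and it called IL6 although the control libraries alone differed 6.45-fold. The count at an unadjusted p under 0.05 was 0 without knockdown replicate 1, 1 without control replicate 1, control replicate 2 or knockdown replicate 2, and 4 without knockdown replicate 3.

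**Figure D2:**
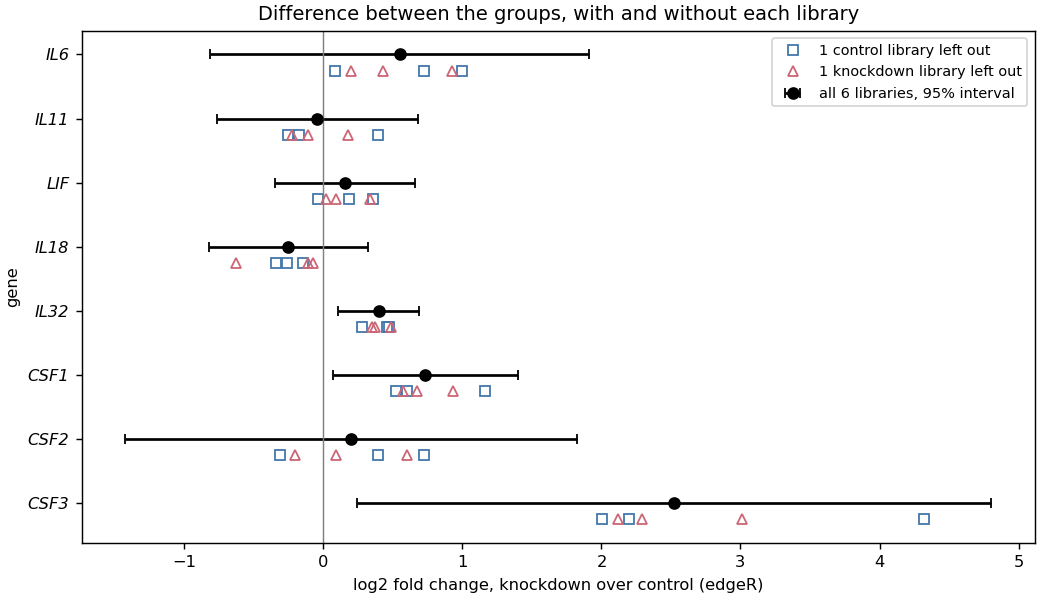
Log2 fold change of each tested cytokine gene, knockdown over control, from edgeR with its 95% interval (black), and the estimates after leaving out 1 control library (squares) or 1 knockdown library (triangles). The intervals of IL32, CSF1 and CSF3 lie above 0, those of the other 5 genes include 0, and estimates of IL11, LIF and CSF2 fall on both sides of 0.

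The spread between replicates was then compared with that of other genes. The pooled SD of log2 CPM within groups had a median of 0.224 over all tested genes. It was 1.76 for CSF3, 1.56 for CSF2 and 1.24 for IL6, and only 0.275%, 0.556% and 1.88% of tested genes had a larger SD. CSF3 is also the least abundant of these, so counting error adds to its value. IL11 (0.549), CSF1 (0.52), IL18 (0.405) and LIF (0.393) were intermediate, with 15% to 25.6% of tested genes above them. IL32 (0.198) was less variable than 55.9% of tested genes. The most abundant cytokine was therefore also among the genes that differed most between libraries of the same label, while IL32, similar to CSF2 in abundance per length, was steady.

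**Figure D3:**
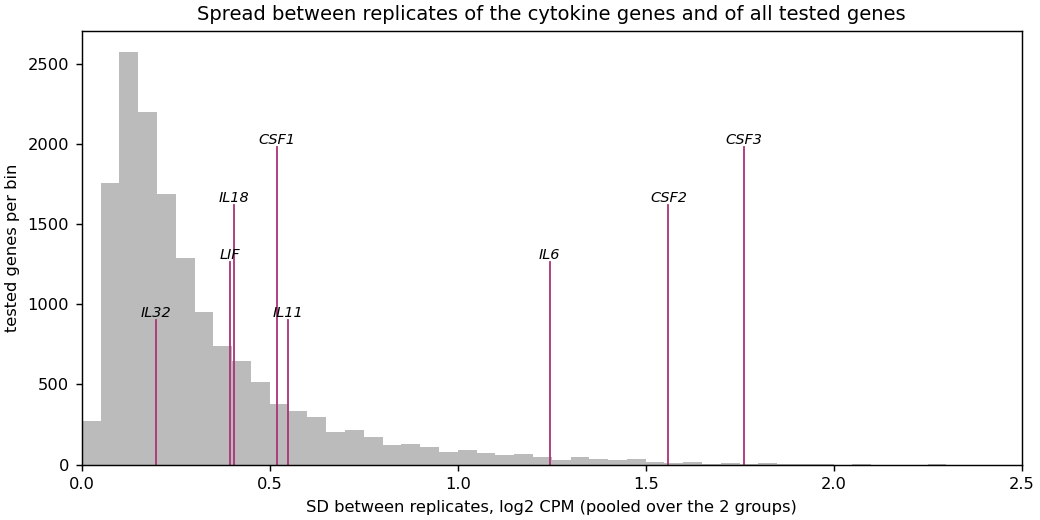
Histogram of the SD between replicates in log2 CPM over the tested genes (x axis up to 2.5, bins of equal width), with a line for each tested cytokine gene. IL32 lies in the bulk of the distribution, and IL6, CSF2 and CSF3 lie in its right tail at 1.24, 1.56 and 1.76.

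Several of the cytokine genes followed a similar order of libraries. Control replicate 1 and knockdown replicate 3 were the lowest pair of libraries for IL6, IL11, LIF and CSF2, which is 4 of 8 against 13.9% of all tested genes. Knockdown replicate 2 was the highest library for 5 of 8. The share of all tested genes highest in that library was not computed, so this count is a description only. Likeness was measured as the mean absolute difference of log2 CPM over the 6 libraries, after centring each gene on its own mean. IL11 and LIF were the closest pair at 0.16, followed by IL6 and CSF2 at 0.239. The ratio of IL6 to CSF2 in CPM stayed between 3.76 and 6.57, although IL6 itself ranged 8.79-fold over the libraries. The ratio of LIF to IL11 stayed between 7.66 and 11.8. By contrast, the ratio of IL6 to CSF1 ran from 1.39 to 8.4. IL18 and CSF3 were the most distant pair at 2.02.

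**Figure D4:**
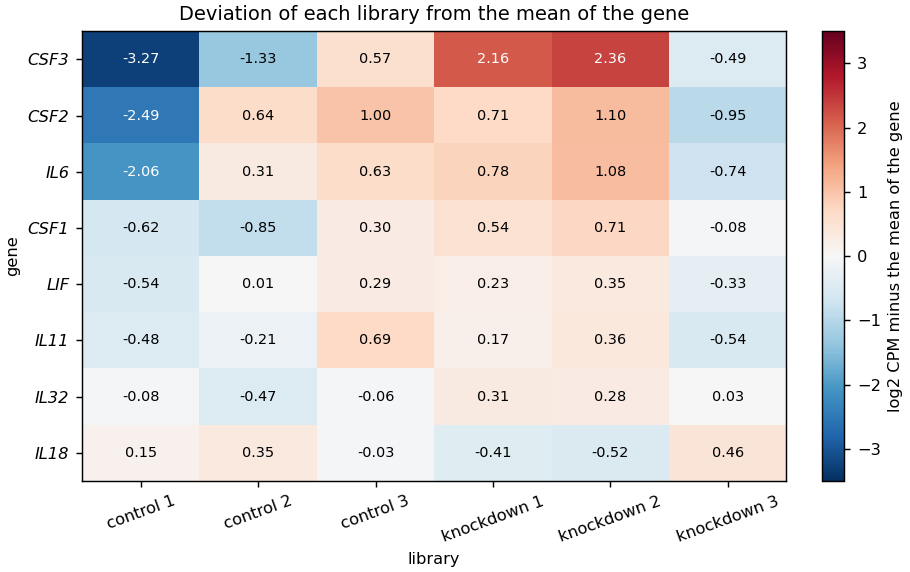
Log2 CPM of each library minus the mean of the gene, for the 8 tested cytokine genes (rows) and 6 libraries (columns), with blue for lower and red for higher. Control 1 and knockdown 3 are below the mean for 6 genes and above it for IL18 in both, while IL32 is slightly below in control 1 (-0.08) and slightly above in knockdown 3 (0.03).

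Other genes with the closest profiles were found among tested genes with a mean of at least 10 CPM. For IL6 these were BIRC3 (0.072), an inhibitor of apoptosis, and NFKBIZ (0.2), an atypical IkB protein. BIRC3 had 6.11, 36.8 and 46.5 CPM in control replicates 1 to 3 and 49.7, 62.2 and 16.3 CPM in knockdown replicates 1 to 3, which is the order of libraries seen for IL6. For CSF2 they were CXCL8 (0.1), the neutrophil chemokine, and BIRC3 (0.186). For CSF1 they were ICAM1 (0.0789), an adhesion molecule, and ZNFX1 (0.142). LIF was closest to ARRDC1 (0.0353) and RRAD (0.0513), and RIPK2 (0.121) was among the closest to IL11. IL32 was closest to POLD4 (0.0369) and ADPRHL2 (0.038). IL18 was closest to TMED7 (0.0419) and GMFB (0.073). CSF3 had no close profile, its nearest being CXCL3 (0.787) and PTX3 (0.794).

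The sequence upstream of start sites was examined because several of the genes moved together between libraries. RefSeq start sites (GRCh38.p14) were on file for IL6, IL11, IL1A, IL1B, IL32 and CSF2, and not for LIF, IL18, CSF1 and CSF3. The 250 bases before the start are shown for the 4 of them that were tested. These start sites need not match the GENCODE gene positions given above. The IL6 window lies wholly inside the GENCODE bounds of its gene, and the IL32 window lies partly inside. Capitals mark matches, on either strand, to an NF-kB motif (GGG, then 2 bases of any kind, then TTTCC), an AP-1 motif (TGANTCA), a cyclic AMP response element (TGACGTCA) or a C/EBP motif (TTGCNNAA), which were searched in all 35116 windows of the table. The windows are chr7:22726950-22727199 (plus strand) for IL6, chr5:132073539-132073788 (plus strand) for CSF2, chr16:3065153-3065402 (plus strand) for IL32 at the first of its 2 start sites, and chr19:55370464-55370713 (minus strand) for IL11.
IL6: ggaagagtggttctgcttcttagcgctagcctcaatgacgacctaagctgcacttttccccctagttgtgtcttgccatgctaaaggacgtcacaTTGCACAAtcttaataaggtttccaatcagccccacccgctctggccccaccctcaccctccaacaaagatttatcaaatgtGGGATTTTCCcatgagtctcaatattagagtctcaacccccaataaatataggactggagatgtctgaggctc
CSF2: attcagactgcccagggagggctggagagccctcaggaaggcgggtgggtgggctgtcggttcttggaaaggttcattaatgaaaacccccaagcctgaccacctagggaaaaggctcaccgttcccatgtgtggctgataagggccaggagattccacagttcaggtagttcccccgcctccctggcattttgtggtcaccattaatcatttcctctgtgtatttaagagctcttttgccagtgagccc
IL32: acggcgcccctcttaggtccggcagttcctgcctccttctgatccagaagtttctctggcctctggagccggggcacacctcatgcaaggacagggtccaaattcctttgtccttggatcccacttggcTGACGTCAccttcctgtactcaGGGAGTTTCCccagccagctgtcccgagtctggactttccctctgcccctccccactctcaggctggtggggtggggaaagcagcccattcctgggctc
IL11: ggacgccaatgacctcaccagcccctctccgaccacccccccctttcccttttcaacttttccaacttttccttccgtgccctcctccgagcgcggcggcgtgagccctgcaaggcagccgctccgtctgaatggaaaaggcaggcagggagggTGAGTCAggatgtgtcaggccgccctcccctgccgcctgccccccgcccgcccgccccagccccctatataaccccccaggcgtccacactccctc

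The NF-kB motif occurred in 1.73% of all windows and was present in IL6, as GGGATTTTCC starting 73 bases before the start site, and in IL32, as GGGAGTTTCC starting 99 bases before it. IL6 also held a C/EBP match (TTGCACAA, 155 bases before the start), which 9.05% of windows have. IL32 held a cyclic AMP response element (121 bases before the start, 1.65% of windows) and IL11 an AP-1 match (96 bases before the start, 6.57% of windows). The CSF2 window matched none of the 4 motifs as spelled, and neither did the window at the other start site of IL32, which is not shown. The windows shown for IL6 and IL32, whose profiles differed by 0.913, both held the NF-kB motif, and those of IL6 and CSF2 shared no match. Sites spelled in another way are missed by this search, so a window without a match may still hold such a site. Whether the motifs bear on the likeness of profiles was not tested. A match in sequence is a description and does not show binding.

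AU-rich elements were counted in the stretch after the stop codon of the canonical GENCODE release 44 transcript. ATTTA, the core pentamer, occurred 8 times in the 318 bases of CSF2, or 25.2 times per kilobase, and 0.0544% of 12860 tested genes reached that density. IL6 had 6 in 425 bases (14.1 per kilobase), CSF3 7 in 854 bases (8.2 per kilobase) and IL11 9 in 1625 bases (5.54 per kilobase). The median of tested genes was 1.69 per kilobase. LIF (2.19 per kilobase) and CSF1 (1.86 per kilobase) were close to that median, while IL18 and IL32 had 0. IL1A and IL1B had 4.38 and 9.84 per kilobase. The 3 genes with the largest spread between replicates, CSF3, CSF2 and IL6, were thus the 3 densest of the 8 tested genes. By number of ATTTA copies the order differed, with 9 in IL11, 8 in CSF2, 7 in each of LIF and CSF3 and 6 in IL6. These are values for 8 genes side by side, and what part mRNA decay has in the spread was not tested. The longer nonamer TTATTTATT was found in 9.63% of tested genes, 6 times in IL11, 3 times in CSF2 and 2 times in each of LIF and IL1B. It was absent from IL6 and CSF3, and also from IL1A, IL18, IL32 and CSF1. Its first occurrence in CSF2 and IL11 is shown in capitals, since these genes hold the most copies.
CSF2: tttaaaatatTTATTTATTtatttatttaa
IL11: aagccagatcTTATTTATTtatttatttca

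Genes that surround the cytokines were examined in 6 lists with 78 genes. Of these, 69 were listed in the counts table, 58 were tested, and 0 passed an adjusted p of 0.05 with edgeR. At an unadjusted p under 0.05, 4 of the 58 passed, where 8.18% of all tested genes did. With DESeq2, 3 of 69 passed, where 4.78% of all genes did, and 0 of the 58 with an adjusted p were below 0.05. The median log2 fold change of the 58 was 0.11.

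Among other ligands and decoys, 4 of 16 were tested. EBI3, a subunit shared by related cytokines, was the most abundant (19.2 FPKM) with a log2 fold change of -0.23. CLCF1, which signals through the CNTF receptor, had 0.16 (adjusted p 0.693). IL1RN, the natural antagonist of the IL1 receptor (named after its values were seen), had 26 reads under the control label and 14 under the knockdown label, and IL33 was not listed.

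Of 17 receptors, 11 were tested, 7 with estimates above 0 and 4 below, and none had an unadjusted p under 0.05. OSMR, which pairs with IL6ST to bind oncostatin M, was the most abundant at 15.5 FPKM. IL6ST itself had a log2 fold change of -0.20 (adjusted p 0.727) and IL1R1, the signalling IL1 receptor, one of -0.73 (SE 0.49, adjusted p 0.689). Receptors for the colony-stimulating factors were near the detection limit, with 1 read of CSF2RA, 6 of CSF2RB and 95 of CSF1R over the 6 libraries, and CSF3R not listed. HK-2 cells thus held CSF1 and CSF2 transcripts in abundance and few of their receptors.

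All 14 genes of receptor signalling were tested, and the median log2 fold change was 0.05. IRAK1, a kinase below MYD88, was the most abundant (115 FPKM, log2 fold change 0.11). TAB1, a partner of the kinase MAP3K7, had 30.4 CPM in the libraries labelled control and 41.6 CPM in those labelled knockdown, with a log2 fold change of 0.45 (edgeR, SE 0.137, adjusted p 0.599). MYD88 had 0.29 (adjusted p 0.642). SOCS3, the feedback inhibitor induced by STAT3 (named after its values were seen), had 0.17 (adjusted p 0.774).

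In the list for processing, release and binding, 11 of 13 genes were tested. CAPN2, a calpain, was the most abundant (189 FPKM), with a log2 fold change of 0.09. ADAM10, a protease that sheds membrane proteins, was at 70.3 CPM and 50.3 CPM in the libraries labelled control and knockdown (log2 fold change -0.48, SE 0.179, adjusted p 0.605). S100A13, which takes part in the export of IL1A, had 90.9 CPM and 106.5 CPM in the same order (0.23, adjusted p 0.605). CASP1, the protease that matures IL1B and IL18, had 5 and 6 reads, and NLRP3 had 1 read in all (both named after their values were seen).

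Of 10 transcription factors, 9 had estimates above 0, with a median of 0.31, and 1 of 10 had an unadjusted p under 0.05, where 49% and 8.18% of all tested genes did. FOSL1, an AP-1 subunit, was the most abundant (174 FPKM, log2 fold change 0.32, adjusted p 0.625). JUN, its partner, had 198.4 CPM and 271.6 CPM in the libraries labelled control and knockdown, with a log2 fold change of 0.45 (edgeR, SE 0.194, adjusted p 0.608). The groups overlapped for all 10.

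All 8 genes of cytokine mRNA decay and stability were tested, with a median log2 fold change of 0.04. HNRNPD, which binds AU-rich elements, was the most abundant (140.2 FPKM) with 0.01. RC3H1 had -0.21 (adjusted p 0.686) and ARID5A, which stabilises IL6 mRNA, had 0.30 (adjusted p 0.693). ZC3H12A, the nuclease that degrades IL6 mRNA (named after its values were seen), had 0.76 (edgeR, SE 0.707, adjusted p 0.766). Without the low-count filter, edgeR called 3 of the 69 genes of the 6 lists, against 0.613% of all 26899 genes. They were ZC3H12A of this list and JUN and NFKB2 of the transcription factors (adjusted p 1.09e-07, 0.0182 and 0.0182). That fit gave all genes 1 shared spread around the trend, and ZC3H12A differed 9.28-fold between the control libraries alone.

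**Figure D5:**
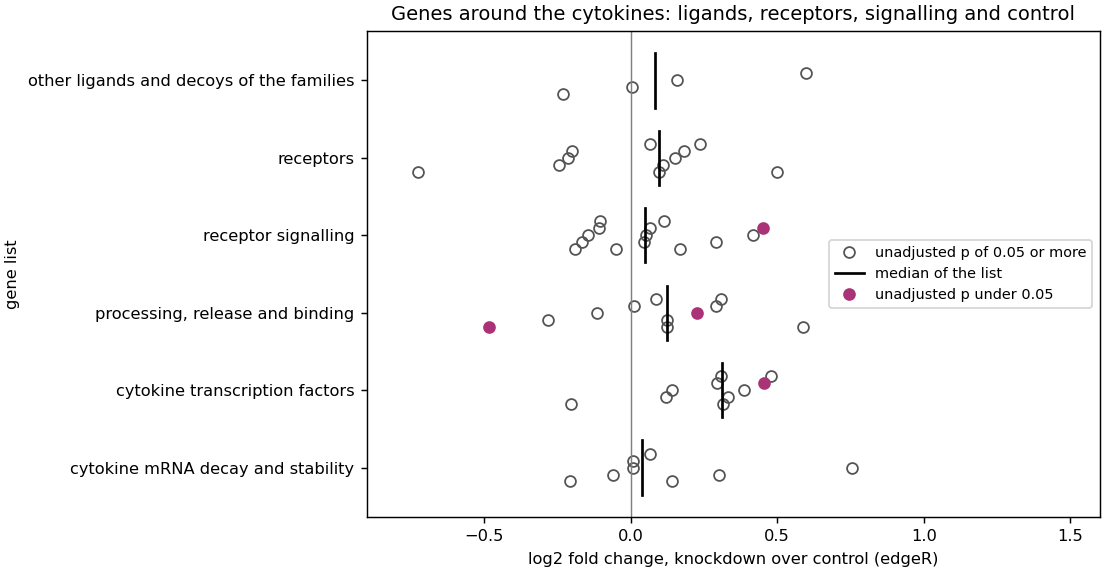
Log2 fold change (edgeR, knockdown over control) of the tested genes in 6 lists around the cytokines, each circle a gene and each black bar the median of its list, with filled circles for an unadjusted p under 0.05. The 4 filled circles are TAB1, S100A13 and JUN above 0 and ADAM10 below 0, and the transcription factors have the highest median (0.31).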

How the data were processed

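Raw read counts per gene for 26899 genes were deposited by the authors, and FPKM values (fragments scaled by transcript length and library size) for 26803 genes were deposited by the authors, rounded to 2 decimals. The labels name GRCh38, bcl2fastq, TopHat2 and edgeR with no role or order. No source used here gives the counter, the annotation release or the strand setting. All 6 columns were mapped by their names to the descriptions of the samples.

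The count test was the quasi-likelihood fit of edgeR (version 4.0.16, R 4.3.3) with TMM scaling, the default low-count filter (minimum count 10, minimum total 15), no covariates, two-sided p and Benjamini-Hochberg adjustment over all 15299 tested genes (threshold 0.05). CPM were scaled to the reads in tested genes times the TMM factor, and fold changes are knockdown over control. Intervals are 95%. Replicates of a group differed beyond sampling noise (chi-square per degree of freedom 10.4 to 53.5), so each was counted as 1 sample. Alternatives used other scalings and filters, DESeq2 1.42.0, limma 3.58.1, FPKM on the log2 scale (1 or 0.1 added), a robust dispersion, the replicate number as a block and the omission of each library.

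The cytokine genes and lists were chosen with earlier results of these data known. Genes named were the 10 cytokines, ANXA2, for each list the 2 tested genes with the smallest p and the most abundant by FPKM, the 2 closest profiles of each cytokine and the marker genes, of which 1 close profile and 1 marker are not reported here. Gene positions were taken from GENCODE release 44 (GRCh38).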

Additional observations from a re-analysis of the deposited data

How the results depend on the processing

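All alternatives were set with earlier results of these data known. edgeR gave 0 genes past an adjusted p of 0.05 (1251 at an unadjusted p under 0.05), against 165 without the low-count filter, 32 with DESeq2, and 0 to 4 with 1 library left out. The count of cytokine genes past that threshold was 0, against 4 without the filter, and that of genes in the surrounding lists was 0, against 3 without it. Why the unfiltered fit called more was not tested beyond its prior degrees of freedom, which were infinite against 5.23. The number of cytokine genes at an unadjusted p under 0.05 was 3, against 1 with DESeq2, 1 with the robust dispersion, and 0 to 4 with 1 library left out. Of 136 estimates of single cytokine genes under alternatives, 126 changed neither sign nor call, 4 gained a call with the sign unchanged and 6 turned in sign. Those 6 were of genes whose estimate lies within 1 standard error of 0, and the cause was not tested. With 1 library left out, IL11 spanned -0.26 to 0.39, LIF -0.040 to 0.35 and CSF2 -0.31 to 0.72. ANXA2 kept its sign under every alternative run, between -0.11 and -0.017 with 1 library left out.

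The replicate number was also fitted as a block. Same-numbered libraries did not deviate together, with correlations across genes of -0.0616, 0.118 and -0.203 for numbers 1, 2 and 3. Deviations were taken from the mean of 3 libraries, so the correlations depend on each other and cannot exclude a shared batch. With the block, edgeR gave 0 genes past an adjusted p of 0.05 and 1076 at an unadjusted p under 0.05, 2 of the 8 cytokine genes had an unadjusted p under 0.05, and IL11 turned to 0.014. Depth limits the statements on IL1A, IL1B and CSF3, and with 3 libraries a group the width of the intervals limits those on IL6 and CSF2.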
